A study of Hippophae rhamnoides with 3 samples.

Results

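Leaves of seabuckthorn (Hippophae rhamnoides) plantlets chilled at 4 °C for 6 h (CS) were compared with leaves of plantlets kept at 28 °C (CON) by DeepSAGE, which counts short tags cut from the 3′ part of cDNA. All plantlets were 30 days old and had been grown at 28 °C under long days after germination in the dark, and no transgene or chemical was involved. The comparison holds every gene and every tag that the deposited CON vs CS tables list, 3872 genes of 7713 distinct genes listed over the gene tables of the series, and 15293 tags. A gene or tag was listed when it differed at least 2-fold and passed the authors' test, so that all members were chosen by this contrast and none is tested again here. A library of plantlets kept at -10 °C for 6 h (FS) is given only as a side value. There was 1 library per condition, the number of plantlets in it is not given in the sources used here, and no difference had a replicate check. The counts and TPM values implied 11566380 clean tags in CON and 12010123 in CS. Genes listed for the comparison took 8.65% of the clean tags in CON and 9.44% in CS. Expression is given as tags, or as TPM (tags scaled to a fixed number of clean tags per library). Ratios are log2 ratios of TPM in CS over CON with an exact 95% interval that covers counting error only. A library at 0 tags was put at 3 tags, 0.259 TPM in CON and 0.250 TPM in CS, and the ratio is then a lower bound. As whole leaves were sampled, fewer cells of a type and less RNA per cell cannot be told apart.

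In plants, a fall to low but non-freezing temperature is read within minutes to hours by calcium influx, protein kinases and transcription factors of the DREB/CBF branch of the AP2/ERF family. These are known to switch on genes of protective proteins, soluble sugars and lipid remodelling, a process called cold acclimation in species that survive frost. Photosynthesis slows more in the carbon reactions than in light capture, and cell expansion and division slow down. Genes were grouped by keywords in the description of their best hit in another species, and those names are all that is known here of their function. Genes were named by a rule given with the processing. Every other named gene, and each family counted within a group, was chosen after its values were seen.

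Of the 3872 listed genes, 2051 (53.0%) were higher in CS and 1821 (47.0%) were lower. Genes higher in CS were further from CON, with a median log2 ratio of 1.95 against -1.57 for those lower. At least 4-fold, 989 genes (25.5%) were higher and 547 (14.1%) lower, and at least 16-fold, 126 were higher and 29 lower. A further asymmetry lay in the genes without any tag, 194 in CON and 87 in CS. The interval of the ratio lay wholly beyond 2-fold in 2483 genes. As the genes were listed by this same ratio, the interval makes no allowance for that choice, and its coverage may not hold for them. No named hit was given for 1213 genes, and 54.7% of these were higher in CS, against 52.2% of the 2659 genes with a hit. The keyword groups held 636 genes, and some genes stood in several groups, so that the group counts are not independent. Because no gene lies between 2-fold higher and 2-fold lower, a group with both directions has no typical ratio, and its count by direction says more than its median.

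**Figure D1:**
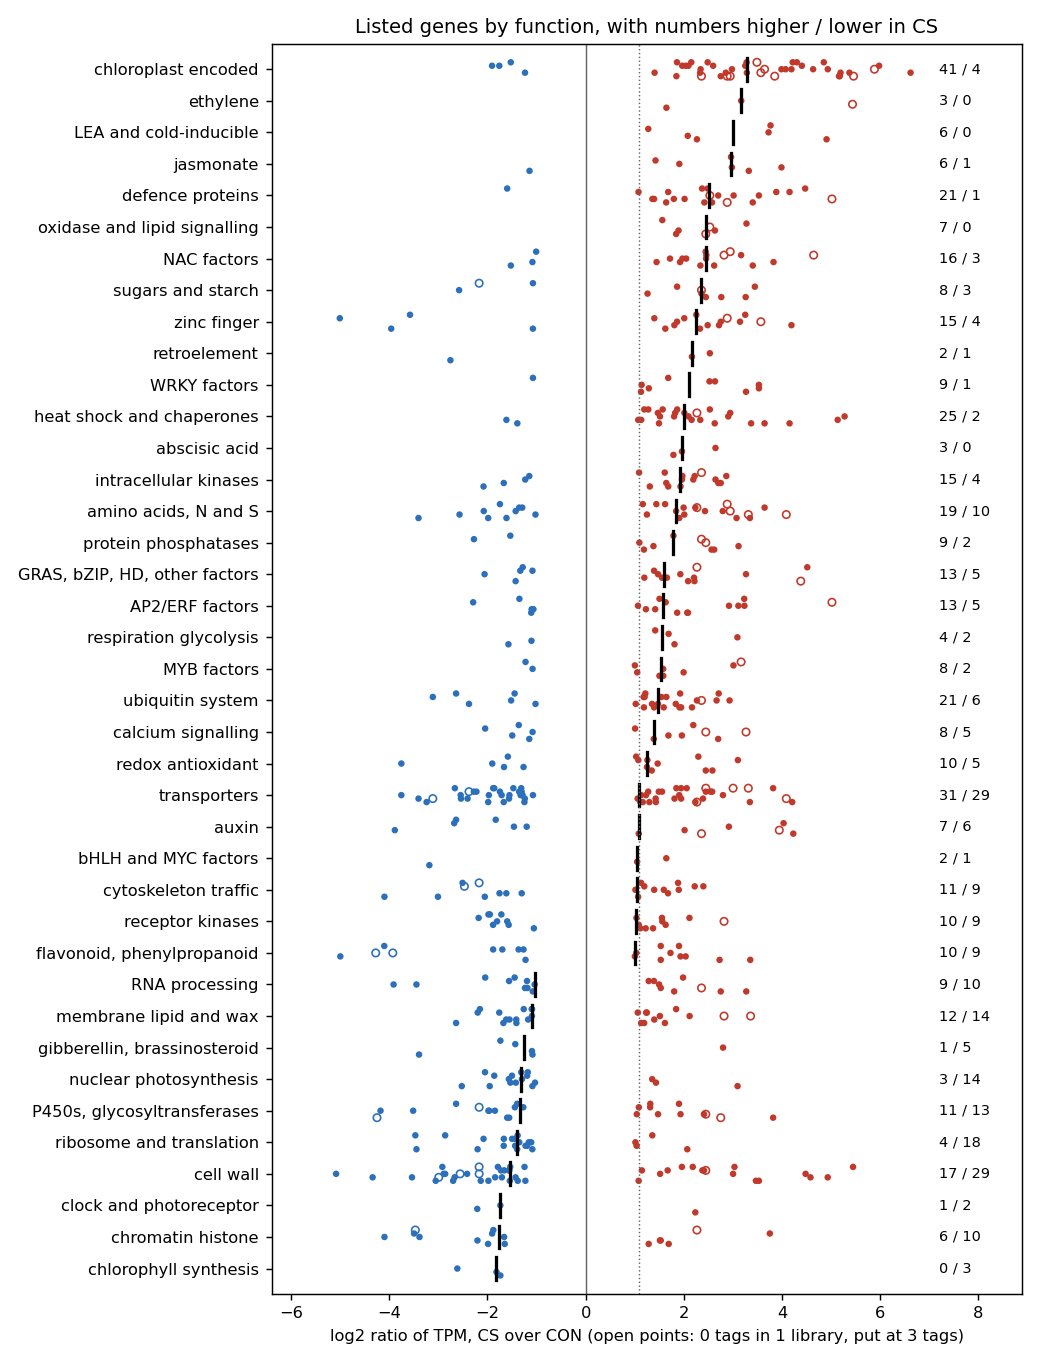
Log2 ratio of TPM in CS over CON for each gene of 39 keyword groups (points; red higher, blue lower, open where a library had 0 tags), with the group's median as a black bar, the median of all listed genes as a dotted line at 1.08, and the numbers higher and lower at the right. Chloroplast-encoded genes (41 higher, 4 lower), defence proteins (21 and 1) and heat shock proteins and chaperones (25 and 2) lie mostly on the right, and nuclear photosynthesis genes (3 and 14) and ribosome and translation genes (4 and 18) mostly on the left.

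The tags that carry the best known cold responses are shown because the tag is the molecule that was counted. Each runs 5′ to 3′ from the NlaIII site, whose 4 bases are in capitals. It is the most abundant listed sense tag that matched that gene alone, so a more abundant tag may be unlisted. The tags higher in CS were read from a DREB-type factor, a TINY-type factor, a NAC factor, an ACC synthase, a respiratory burst oxidase, an Em protein, a heat-shock protein, an expansin-like protein and the photosystem II protein D1.
Unigene7100_All, DREB-type factor: CATGattcagtgcccgaaata
Unigene52031_All, TINY-type factor: CATGggtatcagaaataagag
Unigene29127_All, NAC factor: CATGagtaccgcctcatagaa
Unigene89056_All, ACC synthase: CATGgatgttatagtcaaagg
Unigene2599_All, respiratory burst oxidase: CATGtggctgttaagcatact
Unigene982_All, Em protein: CATGaagggtatcaagagatg
Unigene76779_All, heat-shock protein: CATGaataagatgtaagattg
Unigene61801_All, Ory s 1-like expansin: CATGtgagcggcagtgcaggc
Unigene75203_All, photosystem II protein D1: CATGaacgtaatgctcataac

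The tags lower in CS were read from the RuBisCO small chain, a germin-like protein, a proline-rich wall protein, a polygalacturonase, a UDP-glucosyltransferase and a histone, and they are shown as the counterparts in carbon fixation, the cell wall and the nucleus.
Unigene27359_All, RuBisCO small chain: CATGcatttccaattaatttt
Unigene115968_All, germin-like protein 6: CATGtgtattctacaaattaa
Unigene10303_All, proline-rich wall protein: CATGccttttgctctgagcag
Unigene75030_All, polygalacturonase: CATGatttcccaaccctgtcc
Unigene2160_All, UDP-glucosyltransferase: CATGtatgaaagtattatgtc
Unigene29904_All, histone H3.2: CATGccaagagagttactatt
In these 15 genes the tag lay at the CATG site nearest to the 3′ end, the site the method is built to read. The tag of the DREB-type factor was counted 0 times in CON and 101 times in CS, that of the Em protein 55 and 1684 times, and that of the polygalacturonase 271 and 14 times.

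Transcription factors were mostly higher in the chilled leaves. AP2/ERF factors, which bind GCC boxes and dehydration-responsive elements, were higher in 13 of 18 genes with a median log2 ratio of 1.57. The DREB-type factor Unigene7100_All had 0 tags in CON against 101 in CS and 72 in FS, at least 32.4-fold higher in CS than in CON. The TINY-type factor Unigene52031_All had 18 tags in CON against 176 in CS and 252 in FS, a log2 ratio of 3.24 (2.53 to 4.02). The member with the largest gain in TPM, Unigene811_All, had 190, 837 and 355 tags in the same order. Another factor of this family, Unigene154_All, had 67 tags in CON against 527 in CS and 77 in FS, so that its count was high in the 4 °C library alone. The 5 members lower in CS were 4 hits described only as AP2 domain class factors and 1 ethylene-responsive factor, and the lowest of them, Unigene1810_All, had 66 tags in CON and 14 in CS, a log2 ratio of -2.29 (-3.24 to -1.44).

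NAC factors, plant-specific regulators of stress and ageing, were higher in 16 of 19 genes with a median of 2.45. Unigene29127_All led the gain in TPM with 118 tags in CON against 1101 in CS and 979 in FS, a log2 ratio of 3.17 (2.89 to 3.45). Unigene97776_All had 0 tags in CON against 78 in CS and 7 in FS. These genes thus differed in FS, where the first was near its level in CS and the second was not. Unigene62088_All, the lowest NAC hit, had 72 tags in CON against 26 in CS and 25 in FS. WRKY factors, known from defence, were higher in 9 of 10 genes. Unigene18832_All had 31 tags in CON against 200 in CS and 86 in FS, and Unigene6373_All, a WRKY 26 hit with the largest gain in TPM, had 306, 776 and 1081. The exception, Unigene8984_All, had 77 tags in CON and 38 in CS.

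The other factor groups leaned the same way. MYB factors were higher in 8 of 10 genes, among them Unigene33877_All (14 tags in CON and 58 in CS) and Unigene13828_All (212 and 456), while Unigene5024_All, a MYB6 hit, had 72 and 32. All 5 GRAS and SCL factors were higher, a family that holds regulators of gibberellin and light responses. Unigene42172_All, an SCL hit, had 551 tags in CON against 2431 in CS and 665 in FS, and Unigene10771_All, a GRAS hit, had 93, 449 and 256. Within the wider group of GRAS, bZIP, homeodomain and other factors (13 of 18 higher), the bZIP69 hit Unigene28510_All was the lowest, with 859 tags in CON and 214 in CS. Zinc finger proteins were higher in 15 of 19 genes, and the steepest of those with at least 10 tags in CON was the ZFP248 hit Unigene69708_All, with 16 tags in CON and 147 in CS. The largest gain in TPM among them was in the makorin hit Unigene8012_All, with 115 tags in CON and 315 in CS, and the largest loss in Unigene37786_All, with 292 and 144. The lowest ratios belonged to the C3HL factor Unigene34809_All, with 62 tags in CON and 2 in CS, and the zinc finger protein Unigene62949_All, with 60 and 4. The 3 bHLH and MYC hits split, with Unigene6456_All at 127 tags in CON and 412 in CS, Unigene43764_All at 74 and 159, and Unigene25129_All at 35 and 4.

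Calcium signalling genes were higher in 8 of 13 (61.5%), close to the 53.0% of all listed genes, and the families within the group held few genes each. Synaptotagmin hits went apart, with Unigene23160_All at 4 tags in CON and 27 in CS and Unigene11844_All at 494 and 182. Calcium-dependent protein kinases, which bind calcium themselves, were higher in both listed genes, and CBL-interacting kinases, which are driven by calcineurin B-like sensors, in 3 of 4. The CBL-interacting kinase Unigene46421_All had 72 tags in CON against 342 in CS and 287 in FS, a log2 ratio of 2.19 (1.82 to 2.58). The 3 calmodulin-binding proteins were all lower. Unigene17625_All was the lowest of them with 764 tags in CON against 192 in CS and 194 in FS, a log2 ratio of -2.05 (-2.28 to -1.82). Unigene35111_All, another calmodulin-binding hit, had 110 tags in CON against 54 in CS and 587 in FS.

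Kinases inside the cell were higher in 15 of 19 genes, whereas receptor kinases, which span the plasma membrane, were higher in 10 of 19. The receptor kinases higher in CS include a RALFL33 hit, Unigene1875_All, which is not described as a kinase. The largest gain in TPM in either group was in the MAP kinase Unigene33184_All, a late element of phosphorylation cascades, with 102 tags in CON against 690 in CS and 238 in FS and a log2 ratio of 2.70 (2.40 to 3.02). The lowest intracellular kinase was Unigene2962_All, a homologue of the cell cycle kinase cdc2, with 57 tags in CON and 14 in CS. Among receptor kinases, Unigene22190_All had 18 and 81 tags, the LysM-type Unigene32202_All 167 and 405, and Unigene30526_All 96 and 22. Protein phosphatases were higher in 9 of 11 genes, of which 7 of 8 were of type 2C, the clade that holds the abscisic acid co-receptors. Unigene50859_All had 159 tags in CON against 1015 in CS and 388 in FS, and Unigene22401_All had 24, 216 and 243. The serine/threonine phosphatase 1 hit Unigene14296_All went the other way, with 303 tags in CON against 65 in CS and 94 in FS.

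Oxidative and lipid signalling genes were higher in all 7 listed members, with a median log2 ratio of 2.45. The respiratory burst oxidase Unigene2599_All, whose kind makes superoxide at the plasma membrane, had 15 tags in CON against 151 in CS and 26 in FS, a log2 ratio of 3.28 (2.51 to 4.15). Unigene44264_All, a second oxidase hit, had 45, 138 and 57 tags. A diacylglycerol kinase, Unigene14931_All, which turns diacylglycerol into phosphatidic acid, had 89 tags in CON against 574 in CS and 374 in FS. The other members were 2 inositol 5-phosphatases, a phospholipase C and a phosphatidylinositol transfer protein.

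Hormone genes differed by hormone. The 3 ethylene genes covered both steps of its synthesis and all were higher. ACC synthase Unigene89056_All, the rate-limiting step, had 0 tags in CON against 135 in CS and 0 in FS, at least 43.3-fold higher in CS than in CON. ACC oxidase Unigene30597_All had 36, 117 and 38 tags, and the ethylene-forming-enzyme-like dioxygenase Unigene9111_All had 23, 215 and 76. All 3 were thus highest in the 4 °C library.

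Jasmonate genes, whose product is made from linolenic acid, were higher in 6 of 7. The reductase of 12-oxophytodienoic acid Unigene56418_All had 130 tags in CON against 1065 in CS and 971 in FS, a log2 ratio of 2.98 (2.72 to 3.25). The allene oxide synthase Unigene16849_All had 56, 156 and 279, and the JAZ repressor Unigene17653_All had 32, 259 and 158. The exception stands at the first step, where lipoxygenase LOX2 Unigene10953_All had 1223 tags in CON against 575 in CS and 291 in FS, while another lipoxygenase, Unigene12014_All, had 2, 33 and 23. The 3 abscisic acid genes were higher. The SAPK1 kinases Unigene17584_All and Unigene71018_All had 21 and 4 tags in CON and 85 and 26 in CS, and the ABI2 homologue Unigene16785_All, a phosphatase that represses the signal, had 17 and 61.

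Gibberellin and brassinosteroid genes were lower in 5 of 6. The member that was higher was gibberellin 2-oxidase Unigene24050_All, which inactivates gibberellins, with 13 tags in CON against 94 in CS and 23 in FS and a log2 ratio of 2.80 (1.96 to 3.76). Brassinosteroid-6-oxidase, a late step of brassinosteroid synthesis, was lower in both hits, with 321 tags in CON and 100 in CS for Unigene42967_All and 81 and 8 for Unigene49789_All. The steroid 22-alpha-hydroxylase Unigene24524_All had 156 and 60, and the DELLA protein Unigene11653_All, a repressor of growth, had 102 and 50. Auxin genes divided evenly, 7 higher and 6 lower. The amido synthetase GH3.6 hit Unigene44031_All, which conjugates auxin, had 27 tags in CON against 212 in CS and 55 in FS, and auxin response factor 8 Unigene2273_All had 228, 37 and 118. A 5NG4 hit, Unigene74080_All, showed the largest auxin difference in TPM, with 819, 370 and 887 tags. Another 5NG4 hit, Unigene44108_All, was higher in CS, with 4, 68 and 24. So was another auxin response factor hit, Unigene28575_All, with 309, 679 and 250.

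Protective proteins were higher as groups. Heat shock proteins and chaperones, which keep proteins folded, were higher in 25 of 27 genes and their summed level went from 365 TPM in CON to 1273 TPM in CS. Unigene76779_All held the largest part of that difference, with 1257 tags in CON against 6591 in CS and 370 in FS, a log2 ratio of 2.34 (2.25 to 2.42). The 17.3 kDa small heat shock protein Unigene108878_All had 14, 109 and 40 tags, and the HSP70 Unigene114100_All had 48, 288 and 200. Regulators of the group were also higher, with the heat shock factor Unigene22057_All at 9 tags in CON and 72 in CS and the BAG-type co-chaperone Unigene13328_All at 4 and 161. Among 4 small heat shock proteins 3 were higher, and Unigene24222_All had 56 tags in CON and 19 in CS. The P13.9 chaperone hit Unigene34161_All was the other exception, with 283 tags in CON against 112 in CS and 499 in FS.

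Late embryogenesis abundant (LEA) and cold-inducible proteins were higher in all 6 listed genes with a median of 3.00. Many such proteins are hydrophilic and shield membranes and enzymes when water is withdrawn. The hit of Unigene18940_All, however, is described as having a hydrophobic domain. The Em protein Unigene982_All had 55 tags in CON against 1716 in CS and 717 in FS, a log2 ratio of 4.91 (4.52 to 5.32). The LEA76 hit Unigene7845_All had 58, 820 and 179 tags, and the Lea14-A hit Unigene19832_All had 132, 580 and 758. Those 3 genes differed in which stressed library was higher. Summed over the group, the level went from 25.0 TPM in CON to 274 TPM in CS.

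Sugar and starch genes were higher in 8 of 11. Sucrose phosphate synthase, which commits carbon to sucrose, appeared in opposite directions in its 2 hits, with Unigene6705_All at 21 tags in CON against 209 in CS and 56 in FS and Unigene46113_All at 152 in CON and 75 in CS. Galactinol synthase Unigene45099_All, the entry to raffinose, had 104, 393 and 76 tags. The starch branching enzyme Unigene3544_All had 112, 790 and 427, and beta-amylase Unigene22317_All, which releases maltose from starch, had 6, 68 and 14. Both trehalose-6-phosphate synthase hits were higher, and neutral invertase Unigene22724_All (13 tags in CON and 0 in CS) and granule-bound starch synthase Unigene44163_All (23 and 4) were lower. Starch synthesis and breakdown thus each held a member that was higher.

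**Figure D2:**
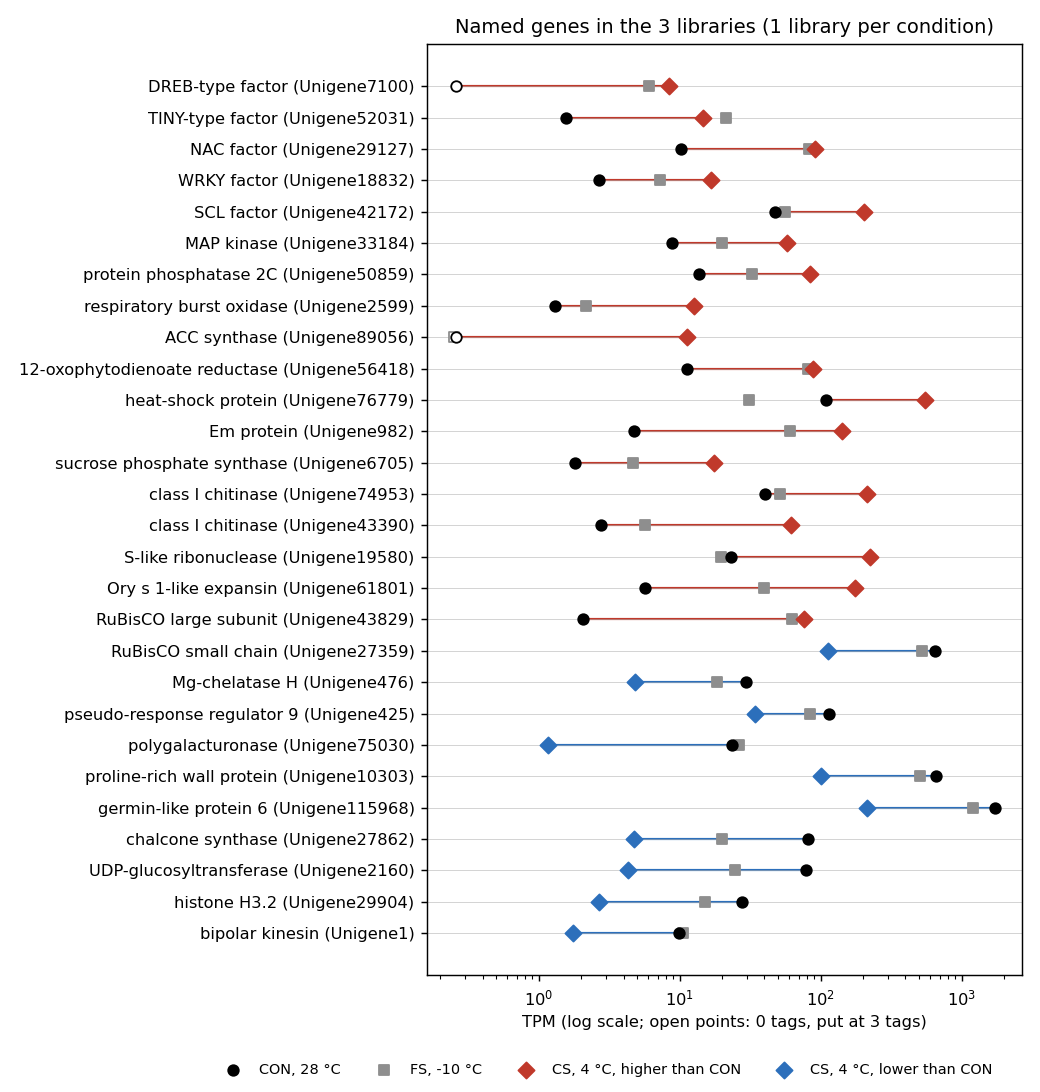
TPM (log scale) of 28 genes in the CON library (black circles), the CS library (diamonds, red where higher and blue where lower than CON) and, where a deposited table lists it, the FS library (grey squares), with 1 library per condition and open points at 3 tags where none was counted. The heat-shock protein Unigene76779_All was at 1257 tags in CON against 6591 in CS and 370 in FS, and the RuBisCO small chain Unigene27359_All at 7492, 1353 and 6206.

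Chloroplast and nuclear genes of photosynthesis lay on opposite sides. The chloroplast keeps its own genome and bacterial type of transcription, while most photosynthesis proteins are encoded in the nucleus and imported. Of 45 genes with a chloroplast-encoded best hit 41 were higher in CS with a median of 3.28, and 37 of them were at least 4-fold higher. The 4 lower genes were all hits to hypothetical chloroplast RF1, the lowest being Unigene40690_All with 787 tags in CON against 218 in CS and 314 in FS. Ycf1 is another name of that gene, and the hit under it, Unigene13699_All, was higher, with 5, 110 and 135 tags. The summed level of all 45 genes was 240 TPM in CON and 1038 TPM in CS. Without the 4 RF1 hits, left out after their values were seen, but with the Ycf1 hit, it was 62.9 and 980 TPM. The RF1 hits alone were at 177 and 58.4 TPM, and together with the Ycf1 hit at 177 and 67.5 TPM.

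The chloroplast genes that were higher covered most functions of that genome. The large subunit of RuBisCO, the enzyme of CO2 fixation, had 24 tags in CON against 912 in CS and 748 in FS in Unigene43829_All, a log2 ratio of 5.19, and 0, 184 and 144 in Unigene56818_All. Cytochrome b6/f subunit IV Unigene25068_All had 5, 188 and 244 tags, and the ATP synthase alpha subunit Unigene16_All had 110, 415 and 1505. All 6 NADH-plastoquinone oxidoreductase subunits were higher, with log2 ratios from 1.41 to 4.19. All 7 chloroplast-encoded hits to plastid ribosomal proteins and polymerase subunits were higher as well, at 2.09 to 4.22. Among them were ribosomal protein S14 Unigene97324_All with 9, 174 and 279 tags and the RNA polymerase alpha subunit Unigene33934_All with 23, 102 and 210. A 50S ribosomal protein L18 hit described as a chloroplast precursor, Unigene16104_All, was counted with the ribosome and translation genes. It was lower, with 114, 28 and 79 tags. Maturase K Unigene21671_All, the chloroplast splicing factor, had 29, 218 and 466. For several of these genes the count in FS was above that in CS.

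Listed tags of the chloroplast genes higher in CS were also spread over more sites. Only tags that differed at least 2-fold themselves are listed, so a gene with a larger difference may have more of them listed. The method starts from RNA bound to oligo(dT) beads and is built to read the 3′-most site. At least 2 sense tags were listed for 13 of 32 chloroplast genes that were higher and had any (40.6%), against 266 of 3139 listed genes with a sense tag (8.47%). The 3′-most site held 56.7% of the listed sense tags of these chloroplast genes in CON and 61.6% in CS, against 83.4% and 84.4% over all listed genes. With the lower RF1 hits included, the 3′-most site held 92.5% of the listed chloroplast sense tags in CON and 64.1% in CS. RuBisCO large subunit tags were read from 6 sites, where the 3′-most had 5 tags in CON and 460 in CS and the fifth 0 and 139. The part of this listing limit in the spread, and of RNA capture by oligo(dT) in the chloroplast counts, was not tested.

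**Figure D3:**
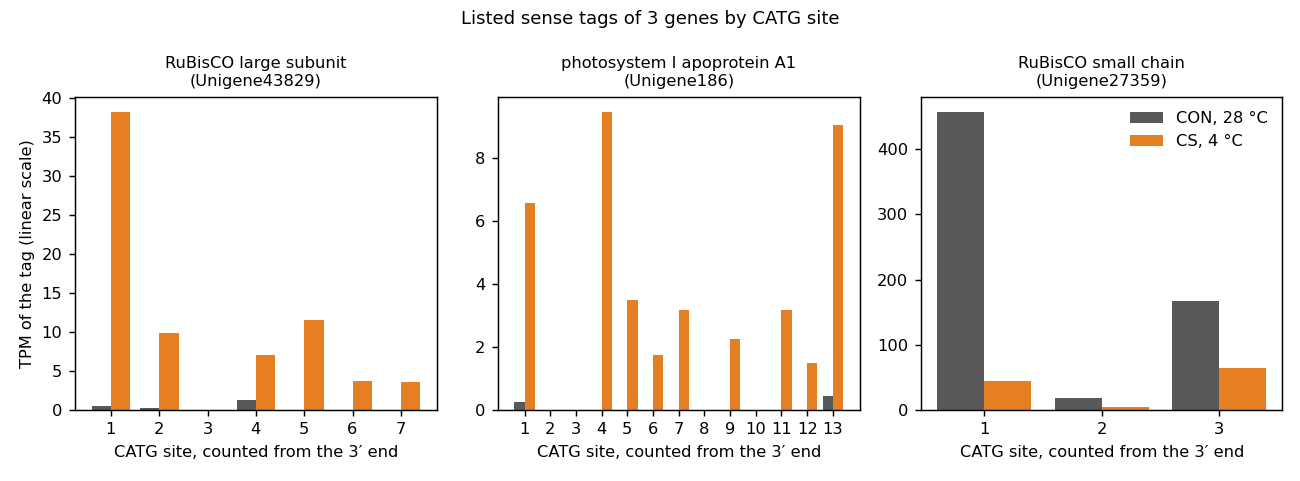
TPM (linear scale) of each listed sense tag of 3 genes by the CATG site it came from, counted from the 3′ end, in CON (grey) and CS (orange), with no bar where no tag was listed. The tags of the RuBisCO large subunit and the photosystem I apoprotein were higher in CS at every listed site, and the 3 tags of the RuBisCO small chain were lower at every site.

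Nuclear photosynthesis genes were lower in 14 of 17 and their summed level went from 6940 TPM in CON to 2591 TPM in CS. The RuBisCO small chain Unigene27359_All, partner of the large subunit, had 7492 tags in CON against 1353 in CS and 6206 in FS, a log2 ratio of -2.52 (-2.61 to -2.44). Its 3 sense tags were not lowered alike, with log2 ratios of -3.39 at the 3′-most site, -2.17 at the next and -1.36 at the third. Phosphoribulokinase Unigene53204_All, the enzyme that regenerates the CO2 acceptor, had 5956, 2709 and 6215 tags, and the light-harvesting protein Unigene113799_All had 21499, 7549 and 19779. Plastidic aldolase Unigene115457_All had 14948 tags in CON and 6857 in CS. The 3 exceptions were a chlorophyll a/b-binding hit, Unigene96011_All, with 49, 435 and 56 tags and a log2 ratio of 3.10 (2.67 to 3.55), the regulator CP12 Unigene14954_All with 85, 226 and 42, and a thylakoid phosphoprotein, Unigene108752_All, with 82, 230 and 466. As the check of the labelled tissue, the 3 chlorophyll a/b-binding hits summed to 3789 TPM in CON and 1384 TPM in CS, and the RuBisCO small chain was at 648 and 113 TPM. The 19 photosystem subunits, encoded in either genome, were higher in 14 and lower in 5 genes and summed to 614 TPM in CON and 802 TPM in CS. RuBisCO activase, also looked for, was not among the genes listed.

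The 2 listed chlorophyll synthesis enzymes were lower, as was an early light-induced protein of the same keyword group, which binds chlorophyll and is not a synthesis enzyme. Magnesium chelatase subunit H Unigene476_All, which places the magnesium, had 342 tags in CON against 58 in CS and 218 in FS, glutamyl-tRNA reductase Unigene44246_All, the first committed step, had 234, 69 and 93, and the early light-induced protein, Unigene14090_All, had 658, 205 and 655. In the small group of clock and photoreceptor genes the pseudo-response regulator 9 Unigene425_All, a morning element of the clock in Arabidopsis, had 1320, 411 and 997. The DNA photolyase Unigene18404_All had 27, 132 and 165, while the CPD photolyase Unigene19895_All had 89, 20 and 54. The hour of harvest is not given in the sources used here.

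**Figure D4:**
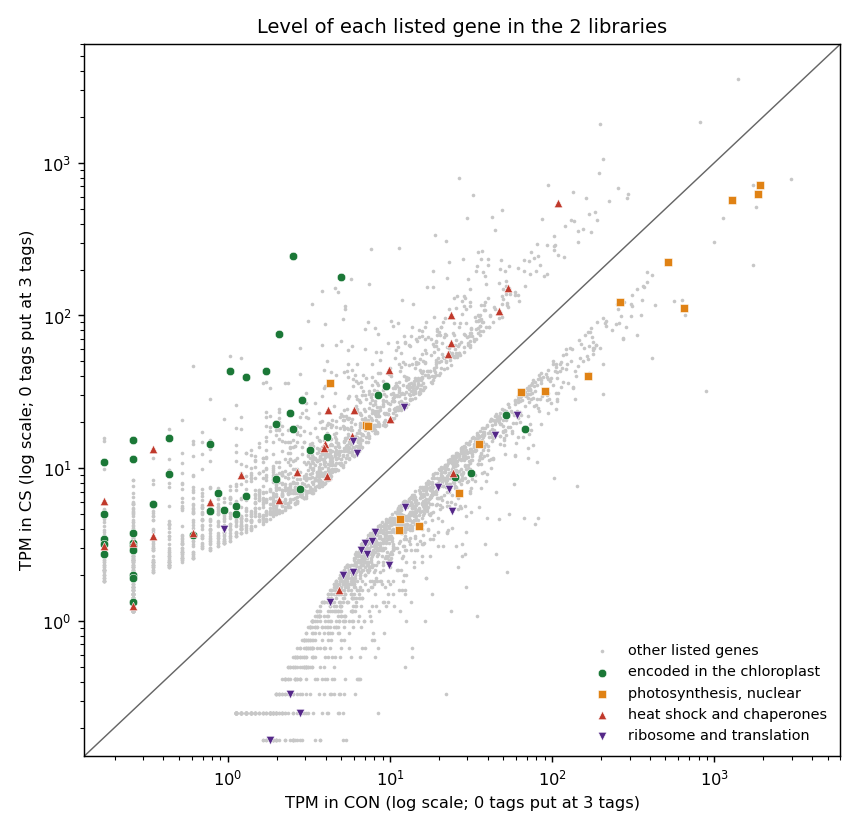
TPM in CON (x axis) and CS (y axis), both on log scales, of all 3872 listed genes (grey), with genes encoded in the chloroplast (green circles), nuclear photosynthesis genes (orange squares), heat shock proteins and chaperones (red triangles) and ribosome and translation genes (purple triangles). The empty band along the diagonal is the 2-fold limit of the deposited table, and 41 of 45 chloroplast-encoded genes lie above it and 14 of 17 nuclear photosynthesis genes below it.

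Cell wall genes were lower in 29 of 46 with a median of -1.55, and the families parted. Alpha-type expansins, which loosen the wall during growth, were lower in all 7 hits, from Unigene5061_All with 2463 tags in CON against 1079 in CS and 884 in FS to Unigene35302_All with 51, 7 and 106. Hits to the rice pollen allergen Ory s 1, a beta-expansin, were higher in all 3, and Unigene61801_All had 66 tags in CON against 2093 in CS and 473 in FS, a log2 ratio of 4.93 (4.58 to 5.31). Xyloglucan endotransglucosylases, which cut and rejoin xyloglucan, held 5 higher and 3 lower members, with Unigene55288_All at 3, 136 and 128 tags and Unigene51655_All at 302, 27 and 268. BRU1 Unigene2099_All, of the same enzyme class, had 60, 510 and 211.

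Structural wall proteins and pectin enzymes were mostly lower. The proline-rich protein Unigene10303_All lost the most TPM of the group, with 7601 tags in CON against 1215 in CS and 6068 in FS, a log2 ratio of -2.70 (-2.79 to -2.61). All 3 fasciclin-like arabinogalactan proteins were lower, among them Unigene32751_All with 672, 94 and 358. Polygalacturonase Unigene75030_All, which cleaves pectin, had 273, 14 and 316 tags and a log2 ratio of -4.34 (-5.23 to -3.57), and both pectate lyases were lower, while both pectinesterases were higher. Of 6 beta-1,3-glucanases 2 were higher and 4 lower, and their ratios ran from that of Unigene35675_All with 7 tags in CON and 174 in CS to Unigene115439_All with 98 and 3. The 3 germin-like proteins, apoplastic enzymes, were lower, and Unigene115968_All was among the 5 largest losses of the library, with 20094, 2571 and 14346 tags.

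Membrane lipid genes showed no common direction, 12 higher and 14 lower. Omega-3 desaturases, which make the trienoic fatty acids, differed by compartment, with the chloroplast enzyme Unigene13598_All at 0 tags in CON against 22 in CS and 24 in FS and the microsomal enzyme Unigene36122_All at 84, 19 and 105. The desaturase and cytochrome b5 fusion Unigene42961_All had 439, 1301 and 1394, and FAD2 Unigene31371_All, which makes linoleic acid, had 1084 in CON and 526 in CS. Both sterol methyltransferases were lower, with Unigene42791_All at 3190 tags in CON and 1471 in CS. A triacylglycerol lipase, Unigene35238_All, had 51, 230 and 25 tags, and both oleosins, coat proteins of oil bodies, were higher, with Unigene10266_All at 278, 660 and 231.

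Transporters were as mixed, 31 higher and 29 lower. Those lower include hits described only as an electron carrier, Unigene111303_All, and an electron transporter, Unigene83606_All. Hits described as sulfate transporters were higher in 4 of 5, and Unigene18853_All had 94 tags in CON against 993 in CS and 411 in FS, a log2 ratio of 3.35 (3.04 to 3.67). A sulfate/bicarbonate/oxalate exchanger hit outside that count, Unigene43082_All, was lower, with 84 tags in CON and 26 in CS. Aquaporins, the water channels, were lower in 4 of 6, with the tonoplast protein Unigene31119_All at 2077, 731 and 397 tags and Unigene75720_All at 409, 67 and 238. The hexose transporter Unigene10924_All, an MSS1 hit, had 82, 465 and 171. An ABC transporter hit, Unigene70932_All, had 91, 10 and 26.

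Nitrogen and sulphur genes were higher in 19 and lower in 10 of 29. Serine acetyltransferases, which lead to cysteine, were higher in both hits and glutamate-cysteine ligase Unigene74257_All, which leads on to glutathione, had 438 tags in CON against 1397 in CS and 915 in FS. All 4 asparagine synthetases were higher, among them Unigene43450_All with 82, 343 and 103, and both glutamine synthetases were lower. Nitrite reductase Unigene3220_All had 1661, 564 and 1306 tags, nitrate reductase Unigene18918_All had 40, 7 and 69, and the photorespiratory enzyme serine-glyoxylate aminotransferase Unigene116018_All had 69, 17 and 62.

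Flavonoid and phenylpropanoid genes were higher in 10 and lower in 9 of 19. The entry into flavonoids, chalcone synthase, was lower in both hits, with 943 tags in CON against 57 in CS and 239 in FS for Unigene27862_All and 459, 147 and 193 for Unigene17948_All. Flavonoid 3-hydroxylase Unigene32455_All had 1293, 521 and 1463, and the flavonol synthase hit Unigene75620_All, the lowest of the group, had 400, 13 and 352. Another hit of that description, Unigene16338_All, was higher, with 86 tags in CON and 296 in CS. Also higher were leucoanthocyanidin reductase Unigene45768_All (15 and 64), flavonoid 7-O-glucosyltransferase Unigene12065_All (88 and 349) and anthocyanin acyltransferase Unigene44003_All (26 and 179). A flavonol sulfotransferase hit, Unigene47486_All, and an isoflavone malonyltransferase hit, Unigene76427_All, were lower. In the lignin and lignan branch, caffeic acid O-methyltransferase Unigene30358_All had 2021, 4207 and 1529 tags and pinoresinol-lariciresinol reductase Unigene1166_All had 21, 223 and 276, a log2 ratio of 3.35 (2.71 to 4.07). A laccase hit of the group, Unigene46050_All, went the other way, with 44 tags in CON against 0 in CS and 21 in FS. Cinnamate-4-hydroxylase, upstream of both branches, lay on both sides in its 2 hits, with 63 tags in CON and 28 in CS in Unigene3004_All and 17 and 66 in Unigene64815_All, whose hit CYP73A47v3 belongs to the same enzyme subfamily.

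Glycosyltransferases and P450 enzymes, which finish many secondary products, were higher in 11 and lower in 13 genes. UDP-glucosyltransferase Unigene2160_All had 907 tags in CON against 52 in CS and 295 in FS, a log2 ratio of -4.18 (-4.61 to -3.78). The 2 hits to UGT71A13 went apart, with Unigene35_All at 3148, 838 and 1027 tags and Unigene37381_All at 1658, 3650 and 4328. The GT8 hit Unigene20462_All had 44, 243 and 59.

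Defence genes were higher in 21 of 22, and their summed level went from 108 TPM in CON to 453 TPM in CS. That count leaves out the beta-1,3-glucanases, also known from defence, which were grouped with the cell wall and were lower in 4 of 6. Resistance-protein hits, the receptors for pathogen effectors, were higher in 10 of 11, and the TIR-NBS-LRR hit Unigene52892_All had 0 tags in CON against 101 in CS and 55 in FS. The exception was Unigene681_All with 350, 120 and 435. Chitinases, which act on fungal walls and are known as antifreeze proteins in cereals, were higher in all 3, with Unigene43390_All at 32, 738 and 68 tags, a log2 ratio of 4.47 (3.96 to 5.03), and Unigene74953_All at 464, 2577 and 616. The lipase-like regulators EDS1 Unigene21647_All and PAD4 Unigene19192_All, which work as a pair in Arabidopsis, had 26 and 42 tags in CON and 71 and 136 in CS.

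Redox genes were higher in 10 of 15. Those lower include a nucleobase ascorbate transporter hit, Unigene41433_All. A glutathione S-transferase, Unigene21480_All, had 24 tags in CON against 214 in CS and 36 in FS. Ascorbate peroxidase Unigene35397_All had 9, 51 and 9, and VTC2 Unigene76542_All, a control point of vitamin C synthesis, had 94, 270 and 280. The dehydroascorbate reductases, which recycle vitamin C, were lower, with Unigene39143_All at 61, 20 and 19 and DHAR2 Unigene13093_All at 81, 35 and 102. Thioredoxin f Unigene20428_All, which activates carbon fixation enzymes in the light, had 54, 15 and 47, and the peroxidase Unigene46632_All had 979, 339 and 851.

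Genes of protein synthesis and of cell division were mostly lower. Ribosome and translation genes were lower in 18 of 22 with a median of -1.39, and cytosolic ribosomal proteins in 8 of 10. The 40S protein S25 Unigene71396_All had 700 tags in CON against 267 in CS and 751 in FS, and the 60S protein L3 Unigene49575_All had 279, 63 and 92, a log2 ratio of -2.20 (-2.62 to -1.80). The 2 cytosolic ribosomal proteins higher in CS were both L7a hits, with 11 tags in CON and 48 in CS in Unigene82559_All. The ribosome assembly protein ESF1 Unigene45480_All had 696, 175 and 216.

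Chromatin genes were lower in 10 of 16. Those higher included the chromatin assembly factor 1 subunit A Unigene111580_All, with 34 tags in CON against 86 in CS and 32 in FS. The Ku70 homologue Unigene32385_All had 2, 28 and 23 tags. Histones were lower in 4 of 5, and histone H3.2 Unigene29904_All had 322 tags in CON against 32 in CS and 180 in FS, a log2 ratio of -3.39 (-3.96 to -2.86). The exception, Unigene94569_All, with a liverwort histone 3 as its hit, had 28 tags in CON and 94 in CS. The replication helicase subunits MCM3 Unigene51455_All and MCM7 Unigene7669_All had 71 and 78 tags in CON and 16 and 22 in CS, and DNA methyltransferase Unigene22271_All had 166, 55 and 133. Kinesins, microtubule motors of which some serve division, were lower in 5 of 6, with the bipolar kinesin Unigene1_All at 115, 21 and 125 tags. The 3 tubulin and actin hits were lower. In the same cytoskeleton and traffic group the membrane protein remorin Unigene42063_All had 40, 219 and 100 and the syntaxin Unigene34750_All 234, 896 and 803.

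The ubiquitin system was higher in 21 of 27 genes, led in TPM by the F-box/LRR protein Unigene44381_All with 321 tags in CON against 1497 in CS and 308 in FS. Ubiquitin ligase hits lay on both sides, with Unigene22016_All, the steepest of the higher genes, at 14, 111 and 38 tags and Unigene92398_All at 55 in CON and 11 in CS. All 4 Clp and FtsH-type proteases were higher, with Clp Unigene102151_All at 462, 2800 and 1285 tags and the peptidase M41 hit Unigene114975_All at 61, 1383 and 263. RNA processing genes held 9 higher and 10 lower members, among which the S-like ribonuclease Unigene19580_All had 266, 2670 and 234 tags, a log2 ratio of 3.27 (3.09 to 3.46).

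Respiration and glycolysis gave few listed genes, 4 higher and 2 lower, with pyruvate decarboxylase Unigene13874_All, the step into fermentation, at 94 tags in CON against 315 in CS and 272 in FS and aldolase Unigene115309_All at 636, 222 and 557. The NADH dehydrogenase 2-like hit Unigene32617_All had 42, 153 and 242. Retroelement polyproteins were higher in Unigene37744_All (41 tags in CON and 191 in CS) and Unigene56357_All (9 and 54) and lower in Unigene34542_All (26 and 4).

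The largest shifts in TPM came mostly from genes without a known function. The 5 largest gains were Unigene57134_All (16109 tags in CON against 42291 in CS and 19032 in FS), Unigene115843_All (2286, 21485 and 5483), Unigene70365_All (9472, 22348 and 5880), Unigene34012_All (2377, 12758 and 1292) and Unigene52642_All (310, 9483 and 1898). These have no hit or a predicted poplar protein as hit. The last of them had a log2 ratio of 4.88 (4.72 to 5.05). Among the 5 largest losses were an unknown protein, Unigene115332_All (34142, 9437 and 13585), and a hypothetical protein, Unigene115019_All (20791, 6165 and 12764), beside the germin-like protein, the light-harvesting protein and a chlorophyll a/b-binding protein, Unigene48572_All, with 22282 tags in CON and 8634 in CS. Of the TPM lost over all genes lower in CS, 26.1% lay in the 10 largest losses, and of the TPM gained, 17.8% in the 10 largest gains. Besides those named above, 2 genes went from 0 tags to at least 100, Unigene17032_All (142 in CS and 11 in FS), an unknown soybean protein, and Unigene38023_All (137 and 357), a hypothetical orchid chloroplast protein.

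Hits to genes named for other organs were present and mostly higher in CS. The markers were oleosin (2 of 2 genes higher), basic 7S globulin (1 of 2), seed LEA proteins (5 of 5), nodulin (2 of 2) and pollen allergen (4 of 4). Their summed levels were 4.24 to 44.1 TPM in CON and 37.9 to 287 TPM in CS. Many of these markers are genes already given above and are no separate observation. The pollen allergens are the Ory s 1 hits of the cell wall group and a profilin, Unigene23127_All. The seed LEA hits belong to the LEA group, and the oleosins were given with the lipid genes. The globulin hit Unigene18515_All had 36 tags in CON against 1103 in CS and 678 in FS, and its relative Unigene22783_All had 243, 74 and 260. The part of other organs in these values was not tested.

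The tag table gave 7791 tags higher and 7502 lower in CS. Unambiguous sense tags were higher in 2100 of 4037 (52.0%) and antisense tags in 1906 of 3581 (53.2%), close to the genes, and tags without a match in 3704 of 7474 (49.6%). Sense tags from the 3′-most site were higher in 1599 of 2979 (53.7%), and those from the fourth site or beyond in 114 of 257 (44.4%). Base composition went with direction, most among unmatched tags, whose 17 bases after CATG had a median GC content of 35.3% where higher and 29.4% where lower in CS. The means were 32.9% and 28.5%. In unambiguous sense tags, where both medians were 35.3%, the means were 36.4% where higher and 34.7% where lower, and in antisense tags 36.5% and 34.6%. The part of base composition in the ratios was not tested.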

How the data were processed

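DeepSAGE was applied by the authors to leaf RNA of 3 libraries, 1 each for CON, CS and FS. They cleaned the reads of adaptors, poor bases and lengths other than 21, kept tags seen at least 2 times, and placed them on reference genes allowing 1 mismatch; Bowtie 0.12.3 is named in the submitters' processing notes. Each deposited count is a number of clean tags for a gene (tags of several genes dropped) or for a tag. In the TPM columns the authors divided counts by the clean tags of the library and wrote 0 as 0.01. Columns of the authors' log2 ratios, P-values and FDR were left unused.

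From the counts, log2 ratios with library totals implied by counts and TPM, and exact 95% intervals, were computed with Python 3.11.15, numpy 2.4.6, pandas 2.3.3 and scipy 1.17.1. The intervals were tested on simulated counts without a choice of genes by ratio, unlike the listed genes. Without molecular identifiers, amplified copies cannot be told from separate molecules, so the intervals and the 3-tag limit describe counting error alone. No test and no enrichment was computed, as only genes past the authors' threshold are listed. The 39 groups are regular expressions on best-hit descriptions. Members and lists were chosen with earlier results of these data known. Some false keyword matches were removed after members were read, but members that fit a group's name only loosely remain. Genes named were the 5 largest gains and 5 largest losses in TPM; in each group the steepest rise and fall by ratio where the lower of both counts reached 10, plus the largest change in TPM; genes at 0 tags in 1 library and at least 100 in the other; and all members of groups of at most 4 genes. FS values come from the other deposited tables, which share these libraries, and are given for some of the genes those tables list. Alternatives were TMM factors (edgeR 4.0.16 in R 4.3.3), at least 30 tags, no zeros, at least 4-fold, an E-value limit of 1e-20, summed hits and single tags. No genome was used, so no positions are given.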

Additional observations from a re-analysis of the deposited data

How the results depend on the processing

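No paired analysis was possible because there was 1 library per condition, and no library could be left out for the same reason. With TMM factors, computed over the listed genes alone, every log2 ratio shifted by -0.12 and 0 of 3872 genes changed side. As every listed gene differed about 2-fold or more, a shift of that size could move none across, by construction. TMM on the tag counts, an alternative chosen after seeing the data, left tags higher and lower within 1.5 times. Listed tags were limited in the same way. When 30 tags were required in the library with more, or without the 281 genes at 0 tags in 1 library, the counts of genes higher and lower in CS stayed within 1.5 times. At least 4-fold in place of 2-fold left 989 genes higher and 547 lower, by its construction. With TMM factors the share of genes higher in CS stayed within its binomial interval in 39 of 39 groups, as no share could move. It stayed so in 39 without zeros and in 39 with hits summed. It stayed so in 38 with at least 30 tags, in 38 with an E-value limit of 1e-20 and in 36 with single sense tags. It moved from 90.0% to 100% for WRKY factors (E-value limit; sense tags), from 72.7% to 100% for sugars and starch (sense tags) and from 66.7% to 100% for retroelements (30 tags; sense tags). The E-value limit dropped the lower WRKY gene Unigene8984_All (2.9e-19), and the limit of 30 tags dropped the lower retroelement Unigene34542_All (26 tags in CON). The cause of the moves with sense tags was not tested. Of 118 named genes none reversed, which TMM factors could not have brought about. The ratio left its interval in 15 with TMM factors, and in 12 of the 108 with a listed sense tag when those tags were summed. Genes of few tags have wide intervals, and an absent gene may only have missed the table's threshold.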
